A study of Mus musculus with 367 samples.

Results

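The expression of 10 genes of fibroblast growth factor (FGF) and hepatocyte growth factor (HGF) signalling was examined in single cells of large mouse wounds. The genes are the ligands Fgf2, Fgf7, Fgf9, Fgf10 and Fgf18, the receptors Fgfr1, Fgfr2 and Fgfr3, the receptor-like gene Fgfrl1, and Hgf. They were chosen by name out of the 50600 genes with values, and none of their values was used to choose them. All mice were Sm22-Cre;tdTomato on a mixed background, were 3 to 8 weeks old by the labels (the study's methods give a narrower range within it), and carried square full-thickness wounds with sides of 1.5 cm on the back. In this strain the promoter of Tagln (also called SM22) drives Cre, so tdTomato marks cells in which that promoter has been active at any time, and not one cell type. Viable tdTomato-high cells of dissociated wound dermis were captured singly on the Fluidigm C1 chip at day 12 (3 captures), day 15 (2 captures) and day 21 (2 captures) after wounding. For every day, pooled wound tissues of 2 to 3 mice were collected. The sources do not say whether the captures of a day came from the same pool or hold cells of separate mice. The p-values thus measure the spread between captures, which may be technical.

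FGFs are secreted proteins that bind receptor tyrosine kinases together with heparan sulfate. Fgf7 and Fgf10 are known as signals from dermal cells to the epithelium, where they bind the epithelial splice form of Fgfr2, while Fgf2, Fgf9 and Fgf18 act mainly on the mesenchymal receptor forms. Hgf is likewise made by mesenchymal cells and binds the receptor Met, and Fgfrl1 resembles the receptors but lacks their kinase domain. Gene-level values do not tell the splice forms of Fgfr1 and Fgfr2 apart.

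After filters 295 cells were kept, and most of them fell into 3 kinds by marker values in FPKM, a unit that corrects fragments for the length of the transcript and the depth of the cell. Matrix cells (199) had Col1a1 of at least 1000, Rgs5 under 100 and Tyrobp under 50 FPKM, mural cells (58) had Rgs5 of at least 500 and Tyrobp under 50 FPKM, and myeloid cells (27) had Tyrobp of at least 500 FPKM. The other 11 kept cells passed no gate. The estimated depth of the kept cells had a median of 1921569 fragments, and the capture medians were 1673872 to 2173627 at day 12, 1129473 and 1168321 at day 15, and 2283320 and 2455548 at day 21, so both day 15 captures were the shallowest. At the median depth 1 fragment amounts to 0.0543 FPKM for Fgfr1 and 0.586 FPKM for the short Fgf18.

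The markers that the gates had not used differed in how sharply they set the kinds apart. Pdgfra, a fibroblast receptor, was at 1 FPKM or more in 157 of 199 matrix cells and in 13 of 58 mural cells. Notch3, a receptor of pericytes and smooth muscle, was at that level in 50 of 58 mural and 2 of 199 matrix cells, and the macrophage gene C1qb in 26 of 27 myeloid and 10 of 199 matrix cells. Other mural markers were less sharp. Pdgfrb was at that level in 57 of 58 mural but also 171 of 199 matrix cells. Cspg4 was so in only 22 of 58 mural and in 11 of 199 matrix cells. Endothelial Cdh5 and keratinocyte Krt5 were at or near 0 in all 3 kinds. Krt10, also listed for keratinocytes, was at 1 FPKM or more in 44 of 199 matrix and 9 of 58 mural cells. Endothelial Emcn was so in 5 of 58 mural cells, with a capture mean of up to 38.5 FPKM. The summed capture means of 6 fibroblast markers were 20637 to 41214 FPKM in matrix cells, 4639 to 17185 FPKM in mural cells and 91.8 to 15124 FPKM in the myeloid gate. Fibroblast transcripts were therefore present in both other kinds, and 19 of 58 mural and 4 of 27 myeloid cells had Col1a1 of at least 1000 FPKM. In the myeloid gate these 4 cells lay in day 12 capture 2 (1 cell), day 15 capture 2 (2 cells) and day 21 capture 1 (1 cell).

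The 3 secreted members most often detected in matrix cells beside Fgf2, namely Hgf, Fgf7 and Fgf10, are encoded on different chromosomes. The 250 bases before their RefSeq transcript starts (GRCm38.p6) are shown because the levels of Fgf7 and Fgf10 in the captures were the most alike of any pair of members. Capitals mark a match to 1 of 3 common promoter motifs, searched on both strands, none of which is contained in another. The CCAAT box was searched by these letters. The TATA box was searched as TATAAA. The GC box was searched as GGGCGG, and the capitals in the Fgf10 window show it as read on the other strand. The windows are chr2:126034408-126034657 for Fgf7, chr13:118714449-118714698 for Fgf10 and chr5:16553245-16553494 for Hgf, all on the plus strand.
Fgf7: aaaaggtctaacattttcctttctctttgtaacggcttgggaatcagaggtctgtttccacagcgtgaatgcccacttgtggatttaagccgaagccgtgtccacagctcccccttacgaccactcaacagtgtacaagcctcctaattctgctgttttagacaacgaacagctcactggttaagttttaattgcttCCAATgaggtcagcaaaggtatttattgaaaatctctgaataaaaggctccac
Fgf10: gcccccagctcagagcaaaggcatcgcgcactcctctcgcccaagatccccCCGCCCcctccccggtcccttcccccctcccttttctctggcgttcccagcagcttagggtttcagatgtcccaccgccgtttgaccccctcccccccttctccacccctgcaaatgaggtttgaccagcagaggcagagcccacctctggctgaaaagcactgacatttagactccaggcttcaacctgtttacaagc
Hgf: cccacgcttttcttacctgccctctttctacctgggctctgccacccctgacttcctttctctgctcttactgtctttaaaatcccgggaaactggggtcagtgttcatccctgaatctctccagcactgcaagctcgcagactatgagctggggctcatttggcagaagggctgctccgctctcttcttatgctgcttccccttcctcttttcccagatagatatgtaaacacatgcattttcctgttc
The Fgf7 window held 1 CCAAT box, the Fgf10 window held 1 GC box, and the Hgf window held no match to the 3 motifs. Another RefSeq start of Hgf has a window at chr5:16553651-16553900 that is not shown. It also held no match, with a GC content of 51.2% and 5 CpG. The CCAAT box was found in 33.8%, the GC box in 32.7% and the TATA box in 12.4% of 32851 promoter windows of this length, so both matches are of common kinds. The windows of Fgf7, Fgf10 and Hgf had a GC content of 43.6%, 61.2% and 50.8% and held 6, 8 and 4 CpG, with medians of 52.4% and 6 over all windows. None of the 3 motifs was held by more than 1 of these windows. Fgf7 lies at chr2:126034658-126091185 and Hgf at chr5:16553495-16620152, each window ending 1 base before the gene record starts, while the Fgf10 record (chr13:118669791-118792115) opens upstream of the window shown.

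Fgfr1, the main FGF receptor of mesenchymal cells (chr8:25513654-25575718, plus strand), was the member with the widest expression. It was above 0 in 193 of 199 matrix cells (97.0%, exact 95% interval 93.6% to 98.9%) and at 1 FPKM or more in 178. The matrix means of the captures were 73.96, 85.6 and 87.9 FPKM at day 12, 93.9 and 50.7 FPKM at day 15, and 60.4 and 42.9 FPKM at day 21. Every capture thus lay within a range of about 43 to 94 FPKM, and both extremes came from days with only 2 captures. The median matrix cell of a capture had between 13.2 and 50.6 FPKM, and the 20 highest of the 199 cells held 43.1% of the summed Fgfr1 value, so Fgfr1 was spread over most cells.

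Fgfr2 (chr7:130162451-133123350, minus strand), the receptor whose epithelial form binds Fgf7 and Fgf10, was above 0 in 105 of 199 matrix cells (52.8%, exact 95% interval 45.6% to 59.9%). Its matrix means were 34.9, 25.7 and 18.7 FPKM at day 12, 34.4 and 26.1 FPKM at day 15, and 49.4 and 63.9 FPKM at day 21. The 2 highest means were those of day 21. The 20 highest cells held 77% of the summed value, and single cells reached 661 FPKM in day 21 capture 2 and 618 FPKM in day 15 capture 1. A RefSeq start of Fgfr2 has its window at chr7:130266809-130267058, well inside this long gene record. In this record 314 exon bases (3.04%) also belong to Ctbp2 on the same strand, and the values do not tell such reads apart. Of the 105 cells with Fgfr2, 102 also had Fgfr1, as did nearly all cells, and 3 matrix cells had neither.

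Fgfr3 and Fgfrl1 were rare. Fgfr3 (chr5:33721674-33737068) was above 0 in 6 of 199 matrix cells, with 65.2 FPKM in 1 cell of day 21 capture 1 and at most 5.02 FPKM in the others. It was found in 0 of 74 matrix cells at day 12, which allows a share of up to 4.05%. Fgfrl1 (chr5:108692382-108706924) was above 0 in 10 of 199 matrix cells, 6 at day 12, 4 at day 15 and 0 of 53 at day 21. The share at day 12 was 8.11% (exact 95% interval 3.03% to 16.8%), and 0 of 53 at day 21 has an exact 95% interval of 0% to 6.72%. These intervals overlap, but they pool cells over captures and cover counting error only, so they do not compare the days. For Fgfr3, 13.9% of the exon bases also belong to the antisense gene G630022F23Rik, and the files do not tell such reads apart.

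**Figure D1:**
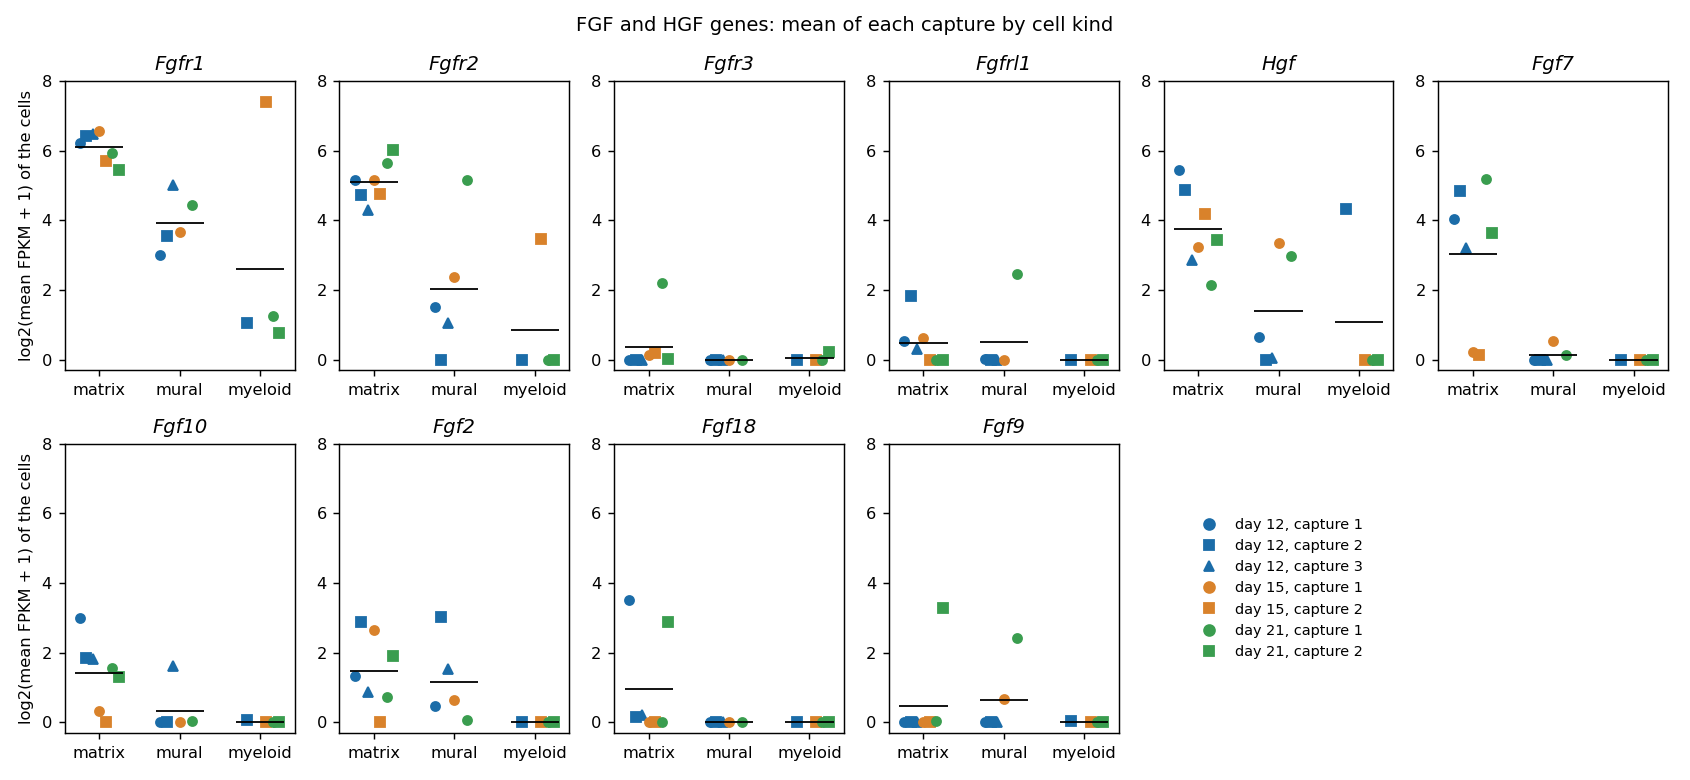
Each panel plots 1 of the 10 genes, with the log2(mean FPKM + 1) of every capture that had at least 3 cells of a kind on the vertical axis and the kind (matrix, mural, myeloid) on the horizontal axis. Colours stand for days, marker shapes for captures, and the short line for the mean over captures. Fgfr1 of matrix cells lay between 42.9 and 93.9 FPKM, above all 5 mural means.

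Hgf was the ligand detected in most matrix cells. It was above 0 in 70 of 199 (35.2%, exact 95% interval 28.6% to 42.2%), and its median among the 55 cells with at least 1 FPKM was 33.7 FPKM. The matrix means were 42.5, 28.1 and 6.32 FPKM at day 12, 8.34 and 17.3 FPKM at day 15, and 3.45 and 9.94 FPKM at day 21. Both high values belonged to day 12, but the day 12 capture 3 lay among the later captures, so the days overlapped. The share of matrix cells with Hgf was 47.3% at day 12 (35 of 74), 31.9% at day 15 (23 of 72) and 22.6% at day 21 (12 of 53). Within single captures this share ran from 11.1% in day 21 capture 1 to 54.8% in day 12 capture 1, with 23.5% in day 12 capture 3. Of the day 15 capture 2 value, 78.99% came from 1 cell with 300 FPKM.

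Fgf7, also called keratinocyte growth factor, was above 0 in 26 of 199 matrix cells (13.1%, exact 95% interval 8.72% to 18.6%). Its matrix means were 15.5, 27.8 and 8.18 FPKM at day 12, 0.172 and 0.106 FPKM at day 15, and 35.3 and 11.5 FPKM at day 21. Both day 15 captures lay below all others, with 3 of 72 cells positive and no cell above 6.42 FPKM. Each mean rested on few cells. The day 21 capture 1 value came wholly from 1 cell at 636 FPKM, and day 12 capture 3 would have had 0.152 FPKM without its highest cell.

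Fgf10 (chr13:118669791-118792115, plus strand) was also above 0 in 26 of 199 matrix cells, at lower values, the highest being 107 FPKM. Its means were 7.002, 2.58 and 2.54 FPKM at day 12, 0.248 and 0.00955 FPKM at day 15, and 1.97 and 1.48 FPKM at day 21. Here too the day 15 captures were the lowest. A single cell made up 49.2%, 65.7% and 53.3% of the day 12 sums and 84.2% and 77.7% of the day 21 sums. At the median depth of all kept cells 3 fragments amount to 0.363 FPKM for Fgf10 and 0.529 FPKM for Fgf7, and to more in the shallower day 15 cells. Fgf7 and Fgf10 were found together in 8 matrix cells, 30.8% of the 26 cells of each, where the product of their separate shares gives 3.40 cells.

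Fgf2, a growth factor without a signal peptide, was above 0 in 32 of 199 matrix cells and at 1 FPKM or more in 15. Its matrix means were 1.50, 6.34 and 0.829 FPKM at day 12, 5.34 and 0 FPKM at day 15, and 0.666 and 2.72 FPKM at day 21. No order of days was visible, and 97.7% of the day 15 sum came from 1 cell at 261 FPKM. Of its exon bases 9.44% also belong to the antisense gene Nudt6. Fgf18, known from bone and hair follicle, was above 0 in 5 of 199 matrix cells, with 323 FPKM in 1 cell of day 12 capture 1 and 221 FPKM in 1 cell of day 21 capture 2, and at most 3.05 FPKM in the other 3. Fgf9 was above 0 in 4 of 199 matrix cells, all at day 21, with 169, 126 and 13.4 FPKM in 3 cells of capture 2. The cell with 169 FPKM of Fgf9 was also the one with the highest Fgfr2 value.

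Most matrix cells carried no FGF ligand of the 5. None was detected in 124 cells, 1 in 58, 2 in 16 and 3 in 1. Of the 3 receptor genes Fgfr1, Fgfr2 and Fgfr3, by contrast, 1 was detected in 92 matrix cells and 2 in 100. Hgf and Fgf7 met in 16 cells, 61.5% of the cells with Fgf7 and 22.9% of those with Hgf. The product of their separate shares gives 9.15 cells. Fgf10 and Fgfr2 met in 19 cells, 73.1% of the Fgf10 cells, where that product gives 13.7 cells. The part of cell depth in these counts was not tested.

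**Figure D2:**
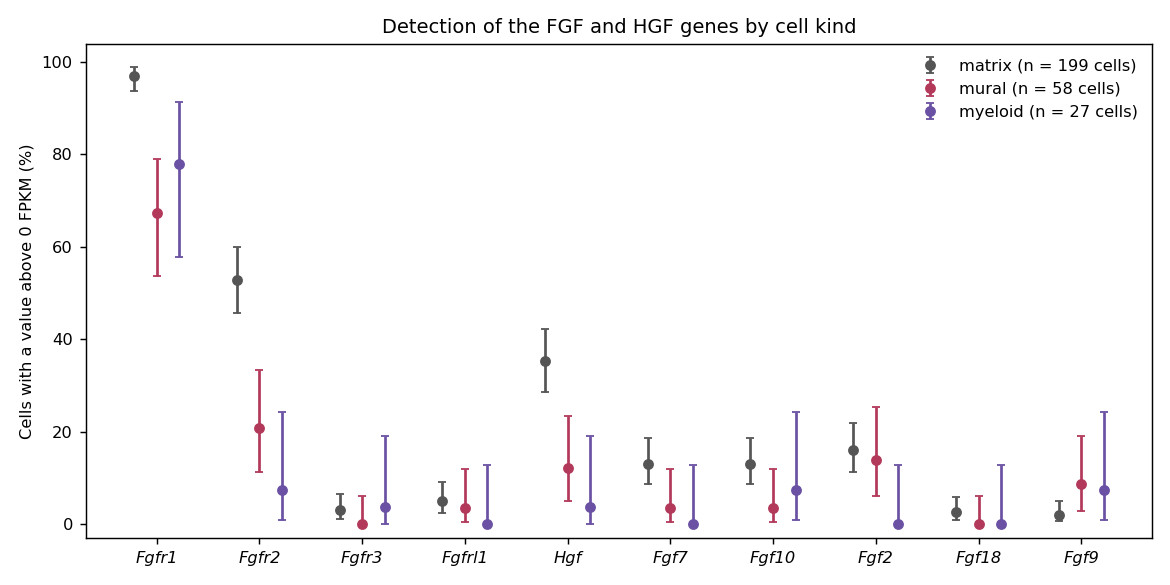
The percent of cells above 0 FPKM is plotted for each of the 10 genes in matrix (199 cells), mural (58 cells) and myeloid cells (27 cells), with exact Clopper-Pearson 95% intervals that cover counting error only. Fgfr1 reached 97.0% of matrix, 67.2% of mural and 77.8% of myeloid cells, while Hgf was above 0 in 35.2%, 12.1% and 3.70% in the same order.

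**Figure D3:**
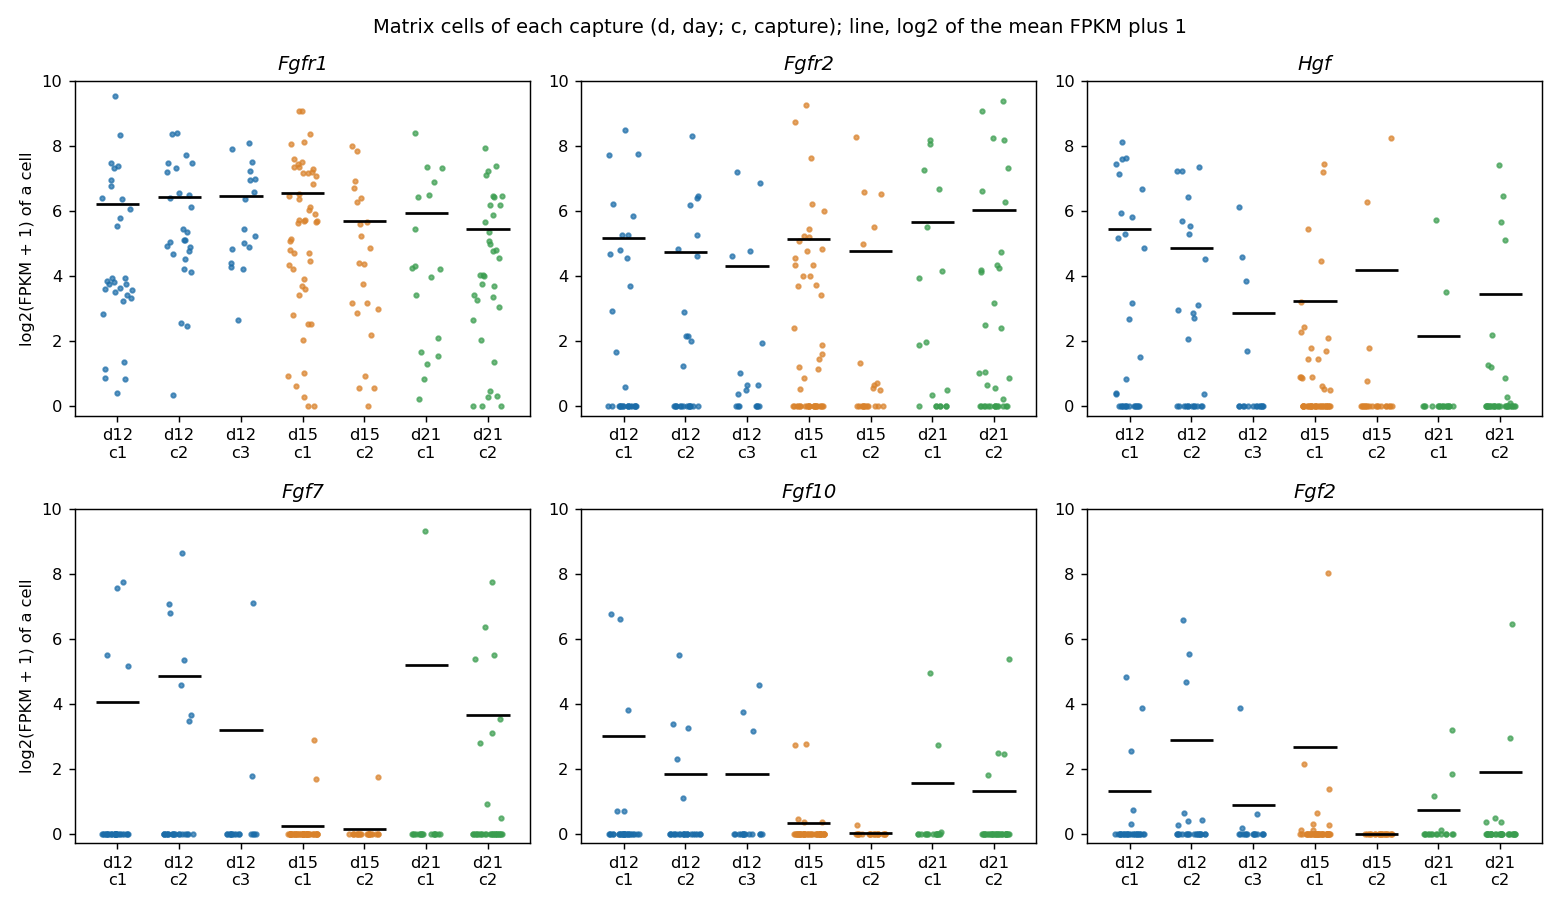
Points are single matrix cells and the vertical axis is log2(FPKM + 1), by capture, for Fgfr1, Fgfr2, Hgf, Fgf7, Fgf10 and Fgf2, with a line at log2(mean FPKM + 1). Fgfr1 filled a continuous range in all 7 captures, whereas most cells lay at 0 for the ligands and a few high cells set the means.

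Between days, matrix cells of all 7 captures were compared in 1 fit, which asks whether these genes changed as the wound matured. None of the 8 members with a mean of at least 1 FPKM passed the adjusted p of 0.05 in any of the 3 contrasts. Over all 13558 genes tested, 0 (0%) passed between days 12 and 15, 1 (0.00738%), Gm2564, between days 12 and 21, and 0 (0%) between days 15 and 21, with 783, 968 and 741 genes at an unadjusted p under 0.05. The Fgf7 difference was the most marked. On the log2(mean FPKM + 1) scale it was -3.84 (SE 0.85) from day 12 to day 15, with a limma adjusted p of 0.513, and 4.23 (SE 0.93) from day 15 to day 21, with an adjusted p of 0.65. These contrasts share the day 15 captures, the shallowest ones, and the part of depth was not tested.

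The other members differed less between days. Fgf10 differed by -2.06 (SE 0.87, limma adjusted p 0.817) from day 12 to day 15 and by -0.78 (adjusted p 0.875) from day 12 to day 21. Fgfr2 differed by 1.11 (SE 0.54, adjusted p 0.723) and Hgf by -1.59 (SE 0.89, adjusted p 0.752) from day 12 to day 21. Fgfr1 stayed within 0.68 on this scale in all 3 contrasts, the difference from day 12 to day 21 being -0.68 (SE 0.47). The medians over all genes tested were -0.10, -0.19 and -0.05 for days 15 against 12, 21 against 12 and 21 against 15. Fgf9 was at 0 in all captures of days 12 and 15 and differed by 1.66 (SE 1.01, limma adjusted p 0.766) from day 12 to day 21. Fgf2, Fgf18, Fgf7 and Fgfr1 each changed sign with the capture left out in at least 1 contrast. Fgfr3 and Fgfrl1 had means under 1 FPKM and were not tested. The standard errors of the 8 members ran from 0.47 to 1.36, which limits what could be called with 2 or 3 captures a day.

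Between mural and matrix cells, the comparison asks whether both kinds of tdTomato-high cells of the same capture express the receptors and ligands alike. It used the 5 captures with at least 3 cells of both kinds. Fgfr1 was lower in mural cells. Its mural means were 7.08, 10.7 and 31.2 FPKM in day 12 captures 1 to 3, 11.6 FPKM in day 15 capture 1 and 20.7 FPKM in day 21 capture 1, against 73.96, 85.6, 87.9, 93.9 and 60.4 FPKM in the matrix cells of those captures. The groups did not overlap and the mural mean was lower in 5 of 5 captures. The difference was -2.40 (SE 0.50) on the log2(mean FPKM + 1) scale, 5.26-fold lower, with a limma adjusted p of 0.0469. It was the 1 of 7 members tested that passed, where 1.85% of 13813 genes passed in either direction and 0.847% passed as lower. Fgf9, Fgfr3 and Fgfrl1 had means under 1 FPKM and were not tested. The median difference was -2.30 over the 7 and -0.23 over all genes, but members that reached a mean of 1 FPKM mostly did so through their matrix values, so the median is no support for a difference. The median depth was 1763746 fragments in mural and 1921569 in matrix cells.

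The Fgfr1 call was close to the threshold. It was lost when any of the 5 captures was left out, with differences of -2.63 to -2.19 and adjusted p of 0.0559 to 0.159, and at a pseudocount of 0.1 FPKM (adjusted p 0.0595). Fgfr1 was detected in 39 of 58 mural cells (67.2%, exact 95% interval 53.7% to 78.995%), at a median of only 0.44 FPKM over all 58. One mural cell of day 15 capture 2, which had too few mural cells for the test, held 354 FPKM with Col1a1 at 352 FPKM.

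Fgfr2 of mural cells was 1.84, 0 and 1.07 FPKM in the day 12 captures, 4.21 FPKM in day 15 capture 1 and 34.9 FPKM in day 21 capture 1. It too was below the matrix mean in 5 of 5 captures, with a difference of -2.98 (SE 0.70, limma adjusted p 0.0681). The last of these means rested on 1 cell with 305 FPKM of Fgfr2 and 12982 FPKM of Col1a1, and without that capture the difference was -3.60 with an adjusted p of 0.043. Of the 39 mural cells with Col1a1 under 1000 FPKM, 2 had Fgfr2, at no more than 1.31 FPKM, and of the 19 with more Col1a1 it was 10. Fgfr1 was detected in 23 of the 39 and 16 of the 19. Fgfr2 in mural cells thus moved with Col1a1, whose part in the difference was not tested.

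The ligands were scarce in mural cells. Fgf7 was listed at 0 in all 3 day 12 captures and had 0.459 and 0.0900 FPKM in the other 2, from 1 cell each, with a difference of -3.37 (SE 0.85, limma adjusted p 0.0869). Without day 15 capture 1 it was -4.29 with an adjusted p of 0.0392. Fgf7 reached the mean of 1 FPKM only through its matrix cells, so that pass is no support for a difference. Hgf had 0.578, 0 and 0.0321 FPKM at day 12, 9.27 FPKM in day 15 capture 1 and 6.84 FPKM in day 21 capture 1, with a difference of -2.30 (SE 0.95, adjusted p 0.298). Fgf10 was above 0 in 2 of 58 mural cells and differed by -1.38 (SE 0.64, adjusted p 0.358). Fgf2 was found in 8 of 58 mural cells. Its mural means were 0.384, 7.22, 1.89, 0.572 and 0.0433 FPKM, against 1.50, 6.34, 0.829, 5.34 and 0.666 FPKM in the matrix cells of those captures, higher in 2 of 5 captures, with a difference of -0.54 (SE 0.64, adjusted p 0.736). Fgf9 was above 0 in 5 mural cells with up to 39.6 FPKM, Fgfrl1 in 2, and Fgf18 and Fgfr3 in 0 of 58, which allows a share of up to 5.17%.

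Between myeloid and matrix cells, 4 captures had at least 3 cells of both kinds. Fgfr2 was lower in myeloid cells. It was listed at 0 in the myeloid cells of day 12 capture 2 and both day 21 captures and had 9.95 FPKM in day 15 capture 2, against 25.7, 49.4, 63.9 and 26.1 FPKM in the matrix cells of the same captures. The groups did not overlap. In the order of day 12 capture 2, day 21 captures 1 and 2 and day 15 capture 2, the myeloid means rest on only 12, 5, 3 and 4 cells. The matrix means rest on 26, 18, 35 and 22 cells. The fitted difference was -4.43 (SE 1.08, limma adjusted p 0.0398), a size that depends on the pseudocount since 3 means were at 0. It was the only one of 6 members tested to pass, where 6.23% of 13080 genes passed and 4.54% passed as lower (221 higher and 594 lower, or 230 and 1122 with cells scaled to one total). The other 4 members had means under 1 FPKM. The median of the 6 was -2.92, beside -0.98 over all genes, and rests on members that reached the mean of 1 FPKM mostly through matrix cells. Myeloid cells were the deepest, with a median of 2313806 fragments. The call was lost without day 12 capture 2, day 21 capture 1 or day 21 capture 2 (adjusted p 0.112, 0.119 and 0.114).

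Fgfr1 of myeloid cells was split by capture. Its means were 1.09 FPKM in day 12 capture 2, 1.37 and 0.703 FPKM in the day 21 captures, and 168 FPKM in day 15 capture 2, above the 50.7 FPKM of the matrix cells there. The difference over 4 captures was -3.26 (SE 1.31, limma adjusted p 0.14). The day 15 capture 2 held 4 myeloid cells. Their Fgfr1 values were 410, 156, 104 and 0.67 FPKM, with Col1a1 at 6923, 63.99, 10805 and 341 FPKM, so high Fgfr1 occurred both with and without high Col1a1. Over all captures, the 4 myeloid cells with Col1a1 of at least 1000 FPKM had a median of 56.8 FPKM of Fgfr1, and the other 23 had 0.29 FPKM. Without these 4 cells, a choice made after the values were seen, day 15 capture 2 kept 2 myeloid cells, under the minimum of 3, and left the comparison together with its mean of 168 FPKM. In the 3 captures that remained, Fgfr1 differed by -5.25 (adjusted p 0.0283), Fgfr2 by -5.47 (0.0211) and Fgf7 by -4.56 (0.0253). With day 15 capture 2 left out and all myeloid cells of the other 3 captures kept, Fgfr1 differed by -4.92 (0.0518), Fgfr2 by -5.47 (0.0334) and Fgf7 by -4.56 (0.0463). The cells and the capture thus left at once, and their parts cannot be told apart. Fgf7 was at 0 in all 27 myeloid cells, so its differences hold matrix values alone and its adjusted p are no support for a difference. Of these matrix values, the day 21 capture 1 mean came wholly from 1 cell at 636 FPKM. Fgfr1 was above 0 in 21 of 27 myeloid cells, at 1 FPKM or more in 11, and at a median of 0.41 FPKM.

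The ligands were scarce in myeloid cells. Fgf2, Fgf7, Fgf18, Fgfrl1 and Met were at 0 in all 27 cells, and a count of 0 there still allows 11.1%. Hgf was found in 1 of 27, a cell of day 12 capture 2 with 231 FPKM, and differed by -2.58 (SE 0.95, limma adjusted p 0.113). Fgf7 differed by -3.46 (SE 0.98, adjusted p 0.058), a size set by its matrix values alone. Fgf9 and Fgf10 were each above 0 in 2 cells, all under 1 FPKM.

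**Figure D4:**
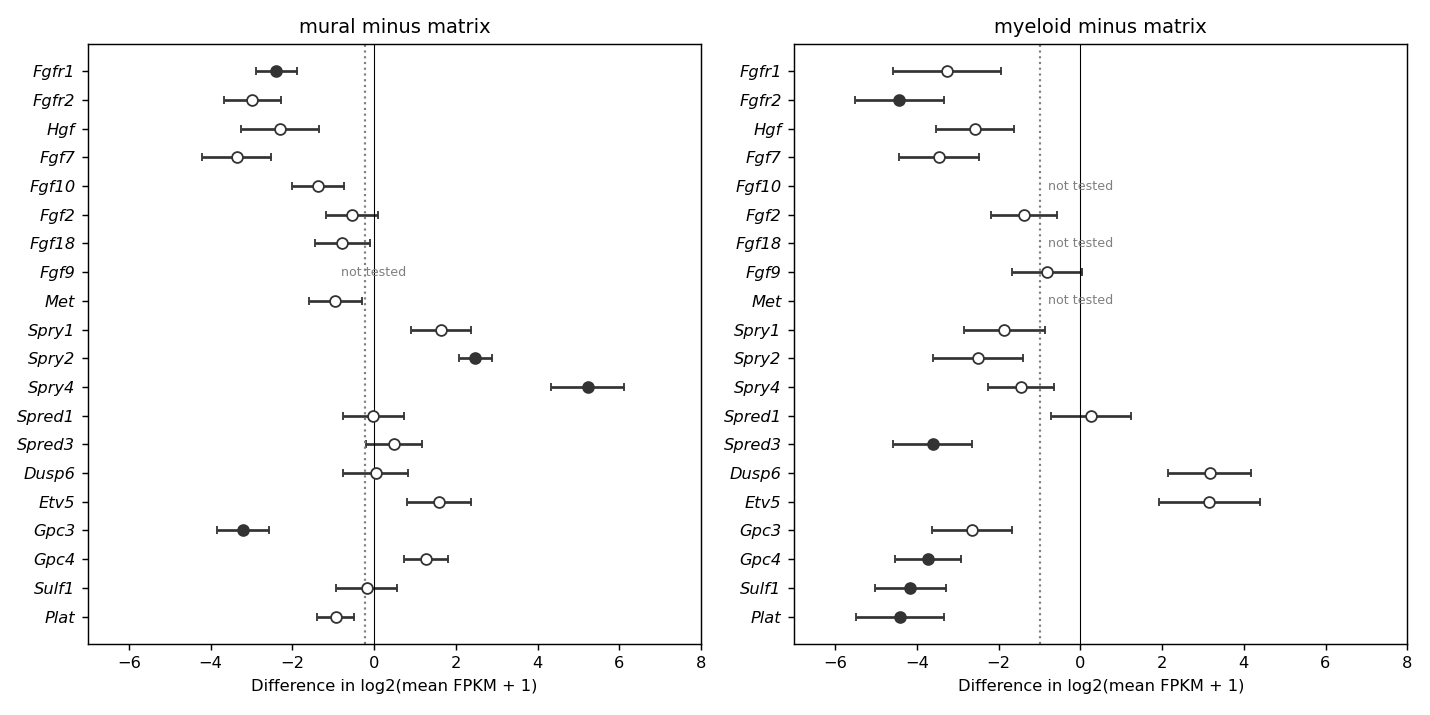
Differences of mural minus matrix cells (5 captures) and myeloid minus matrix cells (4 captures) on the log2(mean FPKM + 1) scale are plotted with their standard errors for members and other genes of the pathways. Filled points passed the limma adjusted p of 0.05, and dotted lines mark the median of all genes tested, -0.23 and -0.98. Fgfr1 (-2.40) among members passed for mural and Fgfr2 (-4.43) for myeloid cells.

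Met, the HGF receptor (chr6:17463800-17573980), was hardly detected in these cells. It was above 0 in 8 of 199 matrix cells, reaching 154 FPKM in 1 cell of day 12 capture 3, in 1 of 58 mural and in 0 of 27 myeloid cells. Of the proteases that can activate HGF, Plat was in most matrix cells (163 of 199) with capture means of 16.4 to 209 FPKM, and Plau had at most 14.5 FPKM in the mean of any kind and capture. The activators Hgfac and Hpn were each found in 1 of 295 kept cells.

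The rest of the 2 pathways was read from a list of 69 genes, 68 of them in the files. In mural cells 41 were tested, of which 2 rose and 1 fell (over all genes 0.999% passed as higher and 0.847% as lower), and their median difference was -0.43. Both that rose were Sprouty genes, which encode inhibitors induced by receptor tyrosine kinase signalling. Spry2 had mural means of 114, 521, 69.9, 153 and 661 FPKM against matrix means of 29.7, 64.1, 24.3, 15.1 and 100 FPKM in the same captures, ordered as for Fgfr1. It was higher in 5 of 5 captures, by 2.47 (SE 0.41, limma adjusted p 0.0155), and was at 1 FPKM or more in 55 of 58 mural and 156 of 199 matrix cells.

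Spry4 was rarely detected in matrix cells. Its mural means were 32.4, 2.23, 77.03, 162 and 135 FPKM, and its matrix means in the same captures were 0, 0.430, 0, 0.129 and 0.571 FPKM. The difference was 5.23 (SE 0.89, limma adjusted p 0.0181). In captures that did not enter this comparison, the matrix means of Spry4 were higher, at 8.29 FPKM in day 15 capture 2 and 1.76 FPKM in day 21 capture 2. It was at 1 FPKM or more in 31 of 58 mural and 8 of 199 matrix cells. Of the mural cells with Col1a1 under 1000 FPKM, 21 of 39 had it, and 10 of 19 of those above. The related Spry1 (1.64, adjusted p 0.341), Dusp6 (0.04, adjusted p 0.989) and the target transcription factor Etv5 (1.59, adjusted p 0.387) did not pass. The gene that fell was Gpc3, a glypican that carries heparan sulfate at the cell surface, with 14.7, 0, 32.1, 5.98 and 97.9 FPKM in mural against 133, 36.5, 98.1, 155 and 311 FPKM in matrix cells, a difference of -3.21 (SE 0.63, adjusted p 0.037).

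**Figure D5:**
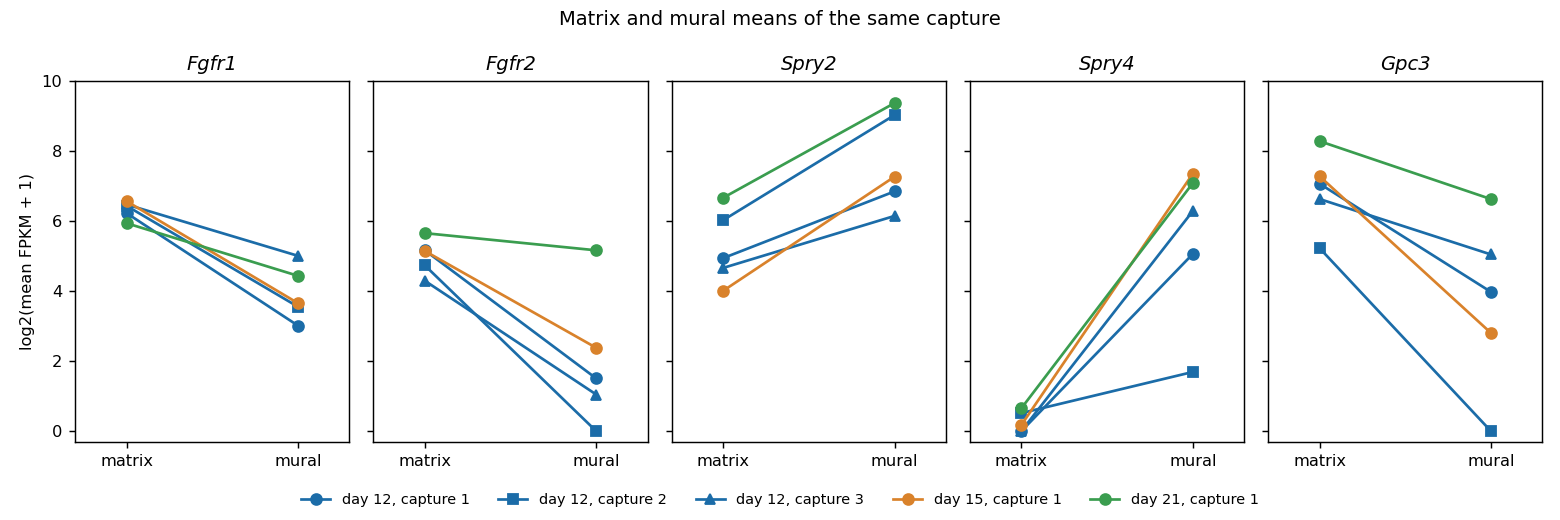
Lines join the matrix and the mural mean of the same capture, as log2(mean FPKM + 1), for Fgfr1, Fgfr2, Spry2, Spry4 and Gpc3 in 5 captures. Fgfr1 and Gpc3 went down and Spry2 and Spry4 went up from matrix to mural cells in all 5 captures.

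The 3 calls were not equally firm. Spry2 lost its call without day 12 capture 2 (adjusted p 0.0763) or day 15 capture 1 (0.0604) and Spry4 without day 12 capture 1, day 12 capture 3 or day 15 capture 1 (0.0655, 0.075 and 0.0874). Gpc3 lost it without any of the captures of days 12 and 15, with adjusted p of 0.0585 to 0.134. The direction of all 3 held in each of these fits.

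In myeloid cells 42 genes of the list were tested, of which 4 fell and 0 rose (over all genes 4.54% passed as lower and 1.69% as higher), with a median of -1.75. Sulf1, which removes sulfate groups from heparan sulfate, fell by 4.16 (SE 0.88, limma adjusted p 0.0276). The glypican Gpc4 fell by 3.73 (SE 0.81, adjusted p 0.0293), the protease Plat by 4.42 (SE 1.07, adjusted p 0.0391) and the inhibitor Spred3 by 3.61 (SE 0.96, adjusted p 0.0486). Gpc4, Plat and Spred3 lost the call without any one of the 4 captures, with adjusted p of 0.0666 to 0.0837, 0.06 to 0.12 and 0.0693 to 0.151. Sulf1 kept it without day 15 capture 2 (adjusted p 0.0482) and lost it without each of the other 3 (0.0731 to 0.0774), and the direction of all 4 genes held. Sulf1 and Gpc4 were listed at 0 in the myeloid cells of 3 of 4 captures. Dusp6, a phosphatase that switches off ERK, was at 78.1, 68.7, 18.03 and 39.3 FPKM in myeloid against 8.70, 5.90, 3.38 and 1.24 FPKM in matrix cells, higher in 4 of 4 captures without passing (3.16, SE 1.01, adjusted p 0.0791). Between days, none of 43 listed genes tested in matrix cells passed.

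Of the 17 other FGF ligands, most were at or near 0. Fgf11, an intracellular FGF, was above 0 in 14 of 199 matrix cells, with capture means of up to 8.33 FPKM, and in 2 of 27 myeloid cells, where 1 cell at 679 FPKM set a mean of 226 FPKM in day 21 capture 2. Its difference of myeloid from matrix cells was 0.63 (SE 1.52, limma adjusted p 0.805). Fgf1 was above 0 in 8 of 58 mural cells with a top value of 766 FPKM and differed by 1.11 (SE 1.10, limma adjusted p 0.68) from matrix cells, and Fgf14, another intracellular FGF, was above 0 in 30 of 199 matrix cells. The fourth receptor gene, Fgfr4, was above 0 in 17 of 199 matrix cells.

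The genes most like each member were sought over the 16 means of captures and kinds with at least 3 cells, by Pearson correlation of log2(mean FPKM + 1) among 14017 genes. These means share captures and depth, so the correlations are a description. Fgfr1 was most like Twsg1 (0.93), Plpp1 (0.93) and Sorcs2 (0.92), and Fgfr2 was most like Adamtsl1 (0.96), Igsf3 (0.94) and Dpysl3 (0.94). Hgf was most like Tanc2 (0.89), Dusp19 (0.88) and Gm20682 (0.87), and Fgf7 was most like Impa2 (0.94), Zfp937 (0.93) and Mbd1 (0.92). For Fgf10 the genes were Snx24 (0.89), Wee1 (0.87) and Thpo (0.86), and for Fgf2 they were 1810062G17Rik (0.89), Diexf (0.88) and Slitrk6 (0.88). Fgf18, whose means rest on 2 cells, was most like Chrdl1 (0.99), Rps2-ps11 (0.98) and Gm43689 (0.94). Among the members themselves the closest pairs were Fgf7 with Fgf10 (0.82) and Fgfr1 with Fgfr2 (0.81).

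The mean of Fgfr2 in day 12 matrix cells also differed with Crabp1, which encodes a retinoic acid binding protein. The same split was made for all 10 members, and Fgfr2 alone is described, after the values were seen. Cells with Crabp1 of at least 100 FPKM, a limit set after the values were seen, had means of 49.4, 28.9 and 20.9 FPKM of Fgfr2 in the 3 captures, against 8.57, 7.74 and 8.05 FPKM in the other cells. These means rest on 20, 22 and 14 cells from the limit and on 11, 4 and 3 cells under it. A single cell held 33.2%, 47.8% and 46.3% of the summed Fgfr2 value of all matrix cells of captures 1 to 3. Fgfr2 was detected in 12 of 20 against 2 of 11 cells, in 10 of 22 against 2 of 4, and in 8 of 14 against 2 of 3, so the share of cells ran the other way in captures 2 and 3. At days 15 and 21 the order was the same in 1 of 4 captures, and neither split was tested.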

How the data were processed

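Full-length RNA-seq of single tdTomato-high cells from 7 C1 captures was used. The deposited values are FPKM, which the authors computed with RSEM on GENCODE mouse release 13 (mm10), and the submitters' processing notes name Bowtie 1.0.0 as well. Positions come from GENCODE mouse release 21, and promoters from RefSeq (GRCm38.p6), which held 9 of the 10 members, all but Fgfr1. One day 12 capture has labels that name another version of its matrix, and the matrix of 40 cells recorded for that sample was used. No cell column was identical to another (0 found), and no doublet caller was run.

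Depth was inferred per cell from the spacing of low FPKM values (9420 genes with 1 transcript, length 1000 bp or more, fragment length taken as 300 bp). The filters removed cells below 159000 fragments, above 11000 genes, or with more than 15% of their FPKM from the mitochondrial genome. Detection means a value above 0, with 1 FPKM as the alternative. For 0 positive cells the limit given is 3 over the number of cells, and intervals are exact (Clopper-Pearson, 95%), for counting error only. The capture is the replicate, and cells are not.

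Means per capture and kind (at least 3 cells) were compared as log2(mean FPKM + 1) for all genes averaging 1 FPKM or more, by limma with a variance trend, two-sided, with Benjamini-Hochberg adjusted p over all genes tested and a threshold of 0.05. A fold on this scale understates the change of low genes. Between kinds the capture was a block. Between days the deviations of captures of equal number correlated by at most 0.025, so captures were not treated as paired by number. The scripts were tested on simulated data. Members, gates, gene lists and tests were chosen with earlier results of these data known. All members and Met are named, with up to 6 passing pathway genes per comparison and the 3 genes most like each member averaging 1 FPKM or more, and the other genes given values were chosen after their values were seen. Alternatives were pseudocounts of 0.1 and 10 FPKM, no filter on low values, no cell filters, cells scaled to one total, means of log values, gates halved or doubled, no variance trend, the block, each capture left out, and, chosen after seeing the data, myeloid cells with Col1a1 under 1000 FPKM. R 4.3.3, limma 3.58.1, Python 3.11.15, numpy 2.4.6, pandas 2.3.3 and scipy 1.17.1 were used.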

Additional observations from a re-analysis of the deposited data

Results flagged for a closer look

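In the 11 kept cells outside the 3 gates, which entered no comparison, 4 members were above the limit of 3 fragments. The highest values were 56.4 FPKM for Fgfr1 (above 0 in 9 of 11 cells), 53.6 FPKM for Fgfr2 (3 cells), 147 FPKM for Fgfrl1 (1 cell) and 3.21 FPKM for Hgf (4 cells). The Fgfrl1 value is above the 51.03 FPKM that was the highest in any matrix cell. The mural minus matrix difference of Hgf had opposite signs in the early and the late captures. Mural cells had 0.578, 0 and 0.0321 FPKM of Hgf in the 3 day 12 captures, below the 42.5, 28.1 and 6.32 FPKM of matrix cells in each, and 9.27 and 6.84 FPKM in day 15 capture 1 and day 21 capture 1, above the 8.34 and 3.45 FPKM of matrix cells. The mean differences of the early and late captures were 4.64 apart on the log2(mean FPKM + 1) scale. This was not tested, and of the late mural values 87.0% and 100% came from 1 cell each.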

How the results depend on the processing

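The lower Fgfr1 of mural cells kept its direction in all 15 alternatives and its call in 6. The difference was -2.48 at a pseudocount of 0.1 FPKM (adjusted p 0.0595), -2.40 with no filter on low values (0.18), -2.38 with no cell filters (0.0502) and -2.40 with no variance trend (0.0883), and it was -2.63 to -2.19 with each capture left out, past the threshold in none. The lower Fgfr2 of myeloid cells kept its direction in 15 and its call in 9. It was -2.04 at a pseudocount of 10 FPKM (0.117), -4.43 with no filter (0.222) and -1.79 for the mean over cells of log values (0.079), and -5.47 to -3.90 with a capture left out. Fgfr2 of mural cells passed in 4 of 15 alternatives, Fgf7 of myeloid cells in 4, and Fgf7 of mural and Fgfr1 of myeloid cells in 1 each. In both comparisons Fgf7 reached the mean of 1 FPKM only through matrix cells. The cause of each lost call was not tested, but without the filter more genes share the adjustment.

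The genes called between mural and matrix cells (255) were 16 with no filter, 688 for the mean over cells of log values and 106 with no variance trend. Leaving out a capture gave 108 to 228, and each of the captures of days 12 and 15 moved the count by more than 1.5 times. The split of higher and lower calls, 138 and 117, was 116 and 127 for cells scaled to one total and 97 and 81 at a pseudocount of 10 FPKM. Between myeloid and matrix cells the 815 calls were 187 at a pseudocount of 10 FPKM, 31 with no filter, 485 with no cell filters, 1352 for scaled cells and 101 to 355 with a capture left out, each of the 4 moving the count. They were 1265 for myeloid cells with Col1a1 under 1000 FPKM, chosen after seeing the data, where day 15 capture 2 also left with 2 of its 4 cells, under the minimum of 3, and 355 without that capture alone. Their split, 221 and 594, was 204 and 281 with no cell filters and 230 and 1122 for scaled cells. Between days 12 and 15 the count of 0 became 32 for the mean over cells of log values. Between days 12 and 21 the count of 1 became 77 for that mean, 3 with gates doubled, and 0 at a pseudocount of 0.1 FPKM, with no filter, for scaled cells and without any capture. Between days 15 and 21 the count of 0 became 1 at a pseudocount of 10 FPKM.

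With the capture number as a replicate block, 0 genes passed in each contrast of days. Without the block of the capture, 273 genes passed for mural and 1193 for myeloid cells. Spry2 (adjusted p 0.0755) and Gpc3 (0.128) lost their mural calls without that block.

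Signs turned only in contrasts of days, for differences that had not passed. From day 12 to day 15, Fgfr2 was -0.055 for the mean over cells of log values, and with a capture left out Fgf2 was -1.69 to 0.98 and Fgfr1 was -0.69 to 0.19. From day 12 to day 21, Fgf7 was -0.19 for that mean, -0.030 with the block and -0.38 to 1.15 with a capture left out. Fgf18 was -0.050 at a pseudocount of 0.1 FPKM, -0.012 for that mean, -0.39 with the block and -1.29 to 1.60 with a capture left out, and Fgf2 was -0.95 to 0.22. From day 15 to day 21, Fgf2 was 0.99 at a pseudocount of 0.1 FPKM, 0.042 with no cell filters, 0.15 for scaled cells, 0.20 for that mean and -1.35 to 1.32 with a capture left out, and Fgfr1 was -0.87 to 0.0071. Depth limits the rare members, since 3 fragments at the median depth amount to 0.163 FPKM for Fgfr1 and 1.76 FPKM for Fgf18.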

Other observations

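Sdc4, a syndecan that carries heparan sulfate, was above 0 in 184 of 199 matrix cells with capture means of 239 to 527 FPKM, and Sulf2, which removes sulfate groups from heparan sulfate, in 180 with 36.8 to 136 FPKM. In mural cells Sdc4 had capture means of 31.4 to 196 FPKM and differed by -1.57 (SE 0.36, limma adjusted p 0.0601), and Sulf2 had 3.95 to 29.5 FPKM and differed by -2.66 (SE 0.67, adjusted p 0.0853), so neither passed. In myeloid cells Sdc4 was above 0 in 26 of 27 cells with capture means of 448 to 1734 FPKM, above the matrix mean in 4 of 4 captures, and differed by 1.10 (SE 0.44, adjusted p 0.137).

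Etv5, a transcription factor induced by FGF signalling, was above 0 in 25 of 199 matrix, 20 of 58 mural and 9 of 27 myeloid cells. Its myeloid means were 4.77 FPKM in day 12 capture 2, 71.8 FPKM in day 15 capture 2, and 0 and 97.9 FPKM in the day 21 captures, and the difference from matrix cells was 3.16 (SE 1.23, limma adjusted p 0.131). The related Etv4 was above 0 in 2 of 295 kept cells. The genes of these paragraphs were chosen from the pathway list after their values were seen.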
